A study of Mus musculus with 24 samples.

Results

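Mammary tumors that appeared early in mice on a high-fat diet (HFD Early, 3 tumors) were compared with tumors that appeared late in mice on a low-fat diet (LFD Late, 5 tumors). These 8 of the 24 tumors on the arrays were taken by the diet and onset in their labels. The study counted 3 tumors of continuous LFD on its arrays, where the labels give 5. Its counts of all arrays and of early tumors were higher than those in the labels. All mice were female BALB/c mice given the carcinogen DMBA by mouth, and the HFD was rich in saturated animal fat. Mice of both groups stayed on their first diet throughout, so the groups differ both in diet and in the time at which the tumor appeared. RNA of each tumor was hybridized on its own 2-color Agilent array beside a reference pooled from 11 mouse cell lines. The HFD Early tumors were MSU_163, MSU_768 and MSU_97, and the LFD Late tumors were MSU_105, MSU_122a, MSU_137, MSU_28 and MSU_34. Values are given in these orders throughout. For context, 6 late tumors of mice kept on HFD (HFD Late) are set beside them. A second comparison used 3 early tumors of mice moved from HFD to LFD as adults (HFD-LFD Early) and 4 late tumors of mice moved from LFD to HFD (LFD-HFD Late). The study reported that early tumors on HFD were more often adenosquamous and more often lacked estrogen and progesterone receptors, so the groups may differ in these too. Histology of single tumors was not analysed here. In whole tumors, fewer cells of a type and less RNA per cell cannot be told apart.

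DMBA is turned in the body into products that damage DNA, and in the mouse mammary gland it gives tumors of several kinds, some glandular and some with squamous differentiation. Dividing cells switch on genes of DNA replication through E2F factors and then genes of mitosis. Wnt proteins act through β-catenin and the TCF factors and maintain progenitor cells of the mammary epithelium. Type I interferon activates transcription factors that bind a short promoter element and switch on a large set of antiviral genes.

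Genes of the cell cycle and interferon-stimulated genes were called most often among the lists examined, and promoters of a few called members are shown because their known regulators read short, recognizable letters. Sequences are from RefSeq (GRCm38.p6), the 250 bases before the annotated start, 5′ to 3′ on the gene's strand. Capitals in the first 3 mark GAAA, any 2 bases and GAAA, or the reverse complement, the letters of the interferon-stimulated response element.
Stat2, chr10:128270248-128270497, plus strand: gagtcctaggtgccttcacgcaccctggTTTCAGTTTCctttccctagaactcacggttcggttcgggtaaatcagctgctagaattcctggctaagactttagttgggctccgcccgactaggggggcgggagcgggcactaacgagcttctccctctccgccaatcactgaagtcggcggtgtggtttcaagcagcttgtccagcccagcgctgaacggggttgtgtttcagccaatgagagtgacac
Oas1a, chr5:120907526-120907775, minus strand: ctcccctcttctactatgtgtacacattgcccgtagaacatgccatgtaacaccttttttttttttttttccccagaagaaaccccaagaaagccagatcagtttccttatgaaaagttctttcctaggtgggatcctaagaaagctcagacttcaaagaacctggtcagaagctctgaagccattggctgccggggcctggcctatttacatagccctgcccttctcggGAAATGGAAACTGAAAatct
Isg15, chr4:156200819-156201068, minus strand: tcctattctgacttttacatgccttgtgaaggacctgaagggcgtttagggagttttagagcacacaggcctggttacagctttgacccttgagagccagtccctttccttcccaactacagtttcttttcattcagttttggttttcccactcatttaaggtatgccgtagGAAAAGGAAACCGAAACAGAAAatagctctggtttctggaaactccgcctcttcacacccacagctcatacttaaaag
Stat2 held 1 match, Oas1a 2 overlapping matches and Isg15 3. Over the interferon-stimulated genes tested, 11 of 27 with a promoter in the table held these letters (40.7%), against 3.26% of the 13316 tested genes with one. Of the called members, 3 of 8 held them. Capitals in the next 3, of a DNA replication gene and of 2 G1/S regulators, mark TTTNNCGC or its reverse complement, the letters read by E2F factors.
Orc1, chr4:108579204-108579453, plus strand: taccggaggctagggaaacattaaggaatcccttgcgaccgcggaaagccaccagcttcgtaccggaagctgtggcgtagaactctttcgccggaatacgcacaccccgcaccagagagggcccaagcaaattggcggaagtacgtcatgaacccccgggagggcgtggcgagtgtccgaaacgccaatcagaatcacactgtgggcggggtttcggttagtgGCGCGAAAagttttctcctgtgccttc
Cdk2, chr10:128705052-128705301, minus strand: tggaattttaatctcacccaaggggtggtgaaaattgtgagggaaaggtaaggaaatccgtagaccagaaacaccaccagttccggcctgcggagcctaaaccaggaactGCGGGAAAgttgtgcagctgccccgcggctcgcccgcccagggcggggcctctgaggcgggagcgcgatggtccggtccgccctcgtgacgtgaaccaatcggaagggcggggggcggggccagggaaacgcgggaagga
Rbl1, chr2:157204535-157204784, minus strand: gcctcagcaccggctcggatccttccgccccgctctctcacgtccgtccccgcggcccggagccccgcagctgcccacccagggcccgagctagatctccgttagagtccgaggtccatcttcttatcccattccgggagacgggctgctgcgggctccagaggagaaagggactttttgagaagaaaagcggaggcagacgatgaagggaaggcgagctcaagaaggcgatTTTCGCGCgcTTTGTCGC
The E2F letters stood in 10 of 43 promoters of the DNA replication list (23.3%), 8 of 23 of the G1/S list (34.8%) and 2 of 35 of the mitosis list (5.71%), against 7.13% of all. The letters TTTGAA, of the cell cycle homology region found in mitosis genes, stood in 12 of the 35 mitosis promoters (34.3%) and in 13.6% of all. The letters CTTTGAT, read by TCF factors, stood in 4 of 34 Wnt pathway promoters (11.8%) and in 2.97% of all. These list shares do not use the differences between the groups. Among promoters of genes called higher, 11.7% held the E2F letters, 3.01% the TCF letters and 11.4% CACGTG, the E-box of Myc. Among those called lower the shares were 5.72%, 2.52% and 7.32%, and CACGTG stood in 8.9% of all. Of 12 promoters of called mitosis genes, 0 held the E2F letters. Both strands were searched, and a match describes the letters only.

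All 3 HFD Early arrays were on slide 2 and 4 of the LFD Late arrays on slide 1, in 1 scan session, with MSU_28 on slide 6 in another. Diet, onset and slide cannot be told apart. In MSU_28 the cyanine 5 signal was lost in a band of rows across the array, and these rows were left out, so 5839 of the 20955 genes tested (27.9%) had 4 LFD Late values. The HFD Late tumors MSU_93 and MSU_96, also on slide 6, lost the same rows. On the 8 arrays, 66.1% to 81.2% of probes had a tumor signal well above background. That share was 73.3% to 81.2% in HFD Early and 66.1% to 74.5% in LFD Late tumors, with the lost rows of MSU_28 counted. Over genes, HFD Early tumors correlated with each other at 0.854 to 0.951, LFD Late tumors at 0.741 to 0.957, and tumors of different groups at 0.731 to 0.872. MSU_137 and MSU_28 stood apart from the other LFD Late tumors. MSU_137 correlated with the HFD Early tumors at 0.866 to 0.872 and with its own group at 0.741 to 0.809, and MSU_28 at 0.822 to 0.866 and at 0.742 to 0.809. Without MSU_137 the comparison called 2855 genes, and without MSU_28 1642, against 1101 with all tumors.

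The epithelial marker Epcam was at a log2 ratio of 3.09, 2.40 and 2.44 in HFD Early tumors and at 1.71, 2.49, 2.6, 1.90 and 0.64 in LFD Late tumors, above the reference in all 8. Ratios are cyanine 5 over cyanine 3, with the tumor in cyanine 5 as the array labels state. The study's methods place the reference in cyanine 5, which would turn every sign. Cyanine 5 varied more from array to array (median SD 0.80 on the log2 scale) than cyanine 3 (0.39), to which the labels assign the shared reference.

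The test called 1101 of 20955 genes (5.25%) between HFD Early and LFD Late tumors, at a limma p under 0.05 after Benjamini-Hochberg adjustment over all genes. Of them, 476 (2.27% of those tested) were higher and 625 (2.98%) lower in HFD Early tumors. The groups did not overlap for 413 of the former and 543 of the latter, and over all genes tested they did not overlap for 16.1%, with 6% higher and 10.1% lower. Loess put the median difference of all genes at -0.07. Centring each array on its median put it at 0.21 and called 938 genes higher and 90 lower, so the balance of rises and falls depended on the scaling. The spread was taken from all 24 arrays. With the 8 arrays alone 3 genes were called, Mycn, Tal2 and St8sia6, the last chosen after its values were seen. Treating slide as a random block left 104. Of the 38 called genes named by rule, 9 were still called with that block, Aldh1a1, Cybrd1, Tal2, Insl6, Tfdp1, Tgfa, Fgf8, Paics and Oas2, and 29 were not, Mycn and Defb1 among them. The count was 34 without MSU_768, 236 without MSU_34, 312 without MSU_105, 337 without MSU_97 and 563 without MSU_163.

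Mycn, a Myc family transcription factor of embryonic tissues, had the largest rise. Its probe, at chr12:12943193-12943252 (mm9), gave 2.36, 2.02 and 0.93 in HFD Early tumors and -3.57, -2.92, -2.39 and -2.79 in LFD Late tumors, with no value in MSU_28. All HFD Early tumors lay above the reference and all 4 LFD Late tumors far below it, 4.69 log2 units apart (standard error [SE] 1.14, adjusted p = 0.0294, limma), or 25.8-fold. HFD Late tumors with a value spanned the gap, from -3.17 to 1.89, and MSU_93 and MSU_96 had none. Aldh1a1, which makes retinoic acid and marks some progenitor cells, was at 2.19, 3.16 and 3.04 in HFD Early and at -1.74, -1.44, -2.08, 0.74 and -1.99 in LFD Late tumors. MSU_28 was the only LFD Late tumor above the reference, and the groups did not overlap, with a difference of 4.10 (SE 0.57, adjusted p = 0.00186, limma), or 17.2-fold.

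Cybrd1, a ferric reductase of the plasma membrane, was at 1.21, 2.04 and 1.18 against -1.29, -1.65, -2.35 and -1.76, a difference of 3.24 (adjusted p = 0.00186, limma). HFD Late tumors with a value, from -2.09 to -0.25, lay below the HFD Early tumors, and MSU_93 and MSU_96 had none. Tal2, a basic helix-loop-helix factor, was at 2.30, 1.5 and 2.30 against -0.56, -1.26, -1.04 and -0.86, a difference of 2.97 (adjusted p = 0.011, limma). Id4, an inhibitor of such factors that is expressed in basal mammary cells, was high throughout the HFD Early tumors, at 4.03, 4.87 and 4.62 against 1.41, 2.27, 0.42 and 1.63. Lpar3, a receptor for lysophosphatidic acid, was at 1.56, 3.39 and 2.69 against -0.56, -0.58, -0.20, 0.19 and -0.43, a difference of 2.86 (adjusted p = 0.0119, limma). Every LFD Late tumor was near the reference or below it for Lpar3, but HFD Late tumors ran from -1.09 to 2.46, into the HFD Early range. Flrt2, an adhesion protein that binds Unc5 receptors, differed by 3.09, with MSU_163 at 0.74 and the other HFD Early tumors at 2.98 and 2.90. Slc6a15, a transporter of neutral amino acids, differed by 3.02, with MSU_137 at 0.77 and the other measured LFD Late tumors between -1.24 and -1.09. HFD Late tumors with a value reached 1.54 for Flrt2 and 1.99 for Slc6a15, inside the HFD Early ranges, and MSU_93 and MSU_96 had none. The rule for the 10 largest rises and falls required groups without overlap, and 15 of these 20 genes lay in the lost rows of MSU_28. Among all genes tested, 7.04% of those in the lost rows were called and 4.56% of the others.

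**Figure D1:**
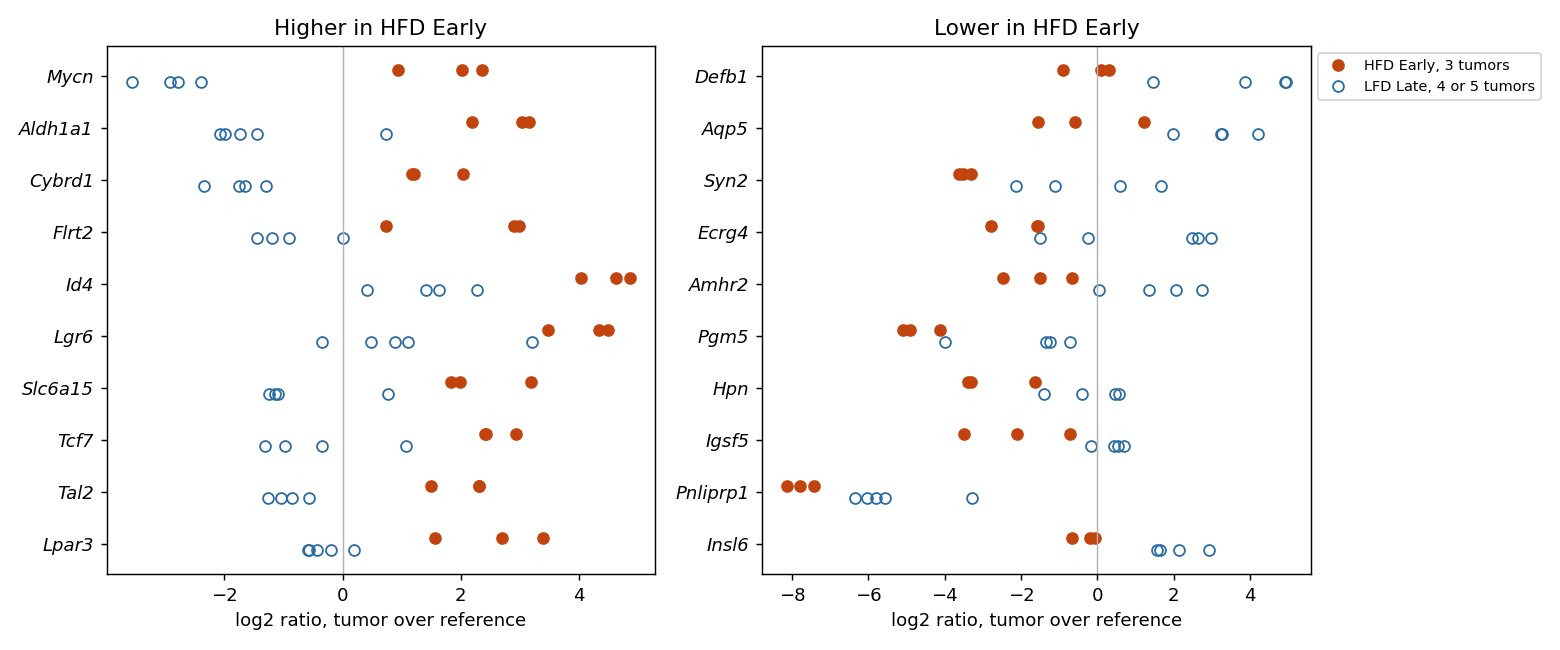
Log2 ratio of tumor to reference (x axis) for the 10 largest rises (left) and 10 largest falls (right) among called genes without overlap. Filled points are the 3 HFD Early tumors and open points the 4 or 5 LFD Late tumors with a value; Mycn was at 0.93 or above in HFD Early and at -2.39 or below in LFD Late tumors, and Defb1 at 0.30 or below and at 1.45 or above.

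Defb1, an antimicrobial peptide of epithelia, was at -0.91, 0.11 and 0.30 in HFD Early tumors and at 4.93, 3.88, 1.45 and 4.94 in LFD Late tumors. MSU_137 was the lowest of the LFD Late tumors but still above every HFD Early tumor, and the difference was -3.97 (SE 0.72, adjusted p = 0.00906, limma), or 15.6-fold lower. HFD Late tumors with a value, from 2.17 to 3.85, also lay above the HFD Early tumors, and MSU_93 and MSU_96 had none. Aqp5, a water channel of secretory epithelium, was at 1.22, -1.56 and -0.59 against 3.25, 3.27, 1.98 and 4.22, a difference of -3.49 (adjusted p = 0.011, limma). Hpn, a membrane serine protease, was at -1.62, -3.30 and -3.38 against 0.47, -0.41, -1.40 and 0.57. The lowest LFD Late value, in MSU_137, was next to the highest HFD Early value, in MSU_163.

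Syn2, a synaptic vesicle protein, was at -3.32, -3.62 and -3.53 in HFD Early tumors and spread from -2.12 to 1.67 in LFD Late tumors, a difference of -3.25 (adjusted p = 0.0229, limma). Ecrg4, which encodes the secreted peptide augurin, was at -2.78, -1.56 and -1.59 against 2.63, 2.97, -1.49, -0.24 and 2.47. MSU_137 and MSU_28 lay near the HFD Early tumors for Ecrg4, with MSU_137 just above the nearest of them. Amhr2, the receptor for anti-Müllerian hormone, differed by -3.08, Pgm5, a protein of adherens junctions, by -2.88, and Igsf5, a junctional adhesion molecule, by -2.47. Insl6, of the relaxin family, was at -0.05, -0.67 and -0.20 against 2.92, 1.56, 1.65 and 2.14, a difference of -2.38 (adjusted p = 0.00735, limma). Pnliprp1, a pancreatic lipase-related protein, was at -7.79, -8.13 and -7.43 against -5.79, -5.55, -6.35, -6.04 and -3.29. Pnliprp1 was thus far below the reference in every tumor.

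**Figure D2:**
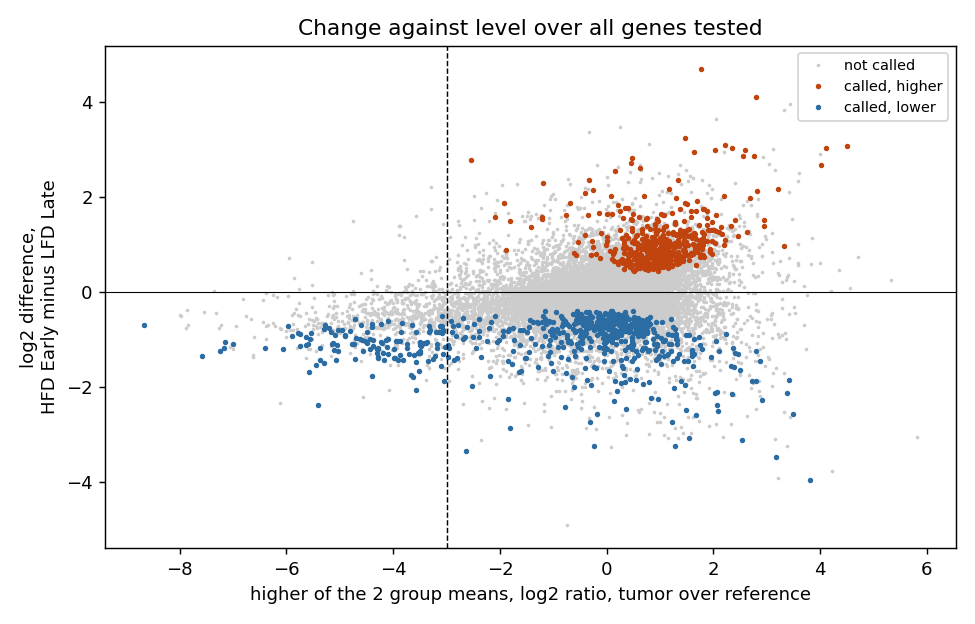
Log2 difference, HFD Early minus LFD Late (y axis), against the higher of the 2 group means (x axis, log2 ratio of tumor to reference) for the 20955 genes tested. The dashed line marks -3; left of it lie 735 genes with 126 called lower and 0 called higher.

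Genes far below the reference in both groups fell more often than the rest. Of the 735 genes with a mean log2 ratio under -3 in both groups, 126 (17.1%) were called lower and 0 higher, with a median difference of -0.61. Of the other 20220 genes, 499 (2.47%) were called lower and 476 higher. Pnliprp1, the complement regulator Cfi, the protease inhibitors Serpind1 and Serpina1a, and Sprr3 of the cornified layer were among the 735. The part of low tumor signal in these falls was not tested.

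Genes of cell division were higher in HFD Early tumors. Of 43 mitosis and G2/M genes tested, 13 were called higher and 0 lower, against 2.27% and 2.98% of all genes. All 43 had a positive difference, against 8913 of all 20955 genes, and their median was 0.77. With median centring it was 1.31, and again 13 were called, while 7 were called with the scanner software's log ratio and 3 with the tumor channel alone. Cenpa, the histone H3 variant of centromeres, was at 0.73, 0.17 and 0.46 in HFD Early tumors and at -1.78, -0.80, -0.40, -0.71 and -1.66 in LFD Late tumors. Its groups lay on opposite sides of the reference, 1.52 apart (SE 0.29, adjusted p = 0.00936, limma). Kif11, the kinesin that separates spindle poles, was at 1.61, 0.99 and 1.22 against -0.40, -0.52, 0.26, 0.48 and -0.59, a difference of 1.43 (adjusted p = 0.0258, limma). Top2a, which untangles DNA before anaphase, was at 1.21, 0.58 and 0.94 against -0.86, -0.57, 0.28 and -0.84, a difference of 1.41 (adjusted p = 0.00954, limma). In both genes the groups were apart, and MSU_137 or MSU_28 was the highest LFD Late tumor. HFD Late tumors reached 1.27 for Kif11, inside the HFD Early range, and -0.55 for Top2a, below it, with MSU_93 and MSU_96 missing for Top2a. Ccna2, the cyclin of S phase and G2, differed by 1.29, Cdc25b, a phosphatase that activates Cdk1, by 1.29, and Ube2c, an enzyme of the anaphase-promoting pathway, by 1.2. Mki67, the proliferation marker, was at 0.78, -0.10 and 0.04 against -1.42, -1.36, -0.14, -0.32 and -1.08, and did not pass the test (difference 1.1, adjusted p = 0.06, limma). The count of called mitosis genes was 1 without MSU_768, 3 without MSU_105 or without MSU_34, 4 without MSU_163 or without MSU_97, and 0 with slide as a random block.

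Of 51 DNA replication genes 6 were called higher and 0 lower, with a median of 0.42, and of 29 G1/S regulators 5 and 0, with a median of 0.45, against 2.27% and 2.98% of all genes. Dbf4, which activates the replication kinase Cdc7, was at 1.26, 0.94 and 0.77 against -0.43, -0.50, 0.44, 0.73 and -0.46, a difference of 1.03 (adjusted p = 0.0226, limma). Orc1, of the origin recognition complex, differed by 0.79, Uhrf1, which maintains DNA methylation at the fork, by 1.32, and Tyms, which makes thymidylate, by 0.78. Tfdp1, the partner of E2F factors, was at 2.05, 2.11 and 1.70 against 0.46, 0.77, 1.14, 0.89 and 0.06. Its groups did not overlap, with a difference of 1.29 (SE 0.23, adjusted p = 0.00756, limma). Rbl1, the E2F repressor p107, was at 1.76, 1.74 and 1.72 against 0.89, 0.84, 0.99, 1.36 and 0.99, and Cdk2, the kinase of S phase entry, differed by 0.99. HFD Late tumors reached 1.85 for Rbl1, above every HFD Early tumor, and 1.37 for Tfdp1, below them all. The sliding clamp Pcna and the helicase subunits Mcm2 and Mcm7 differed by 0.33, 0.70 and 0.78 and were not called (adjusted p = 0.29, 0.148 and 0.193, limma). Without MSU_105, MSU_163, MSU_34 or MSU_768, 0 replication genes were called in each case.

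Interferon-stimulated genes were lower in HFD Early tumors. Of 33 tested, 9 were called lower and 0 higher, against 2.98% and 2.27% of all genes. A negative difference was found for 32 of the 33, with a median of -1.26, and for 12042 of all 20955 genes. Oas2, an enzyme that senses double-stranded RNA, had the smallest p, with its probe at chr5:121180343-121180402 (mm9). It was at 1.19, 1.35 and 2.16 in HFD Early and at 3.62, 3.31, 3.77 and 2.98 in LFD Late tumors, above the reference in all of them. The groups did not overlap and differed by -1.85 (SE 0.32, adjusted p = 0.00794, limma). Isg15, a ubiquitin-like protein, was at -1.30, -0.19 and -0.02 against 1.62, 2.02, 2.23, 0.11 and 1.35, and Ifi44 at 0.64, 1.29 and 1.77 against 3.91, 3.56, 4.23, 2.45 and 2.70. MSU_28 was the lowest LFD Late tumor for both. Stat2, the interferon-activated factor itself, differed by -1.2 and the RNA sensors Ifih1 and Ddx58 by -1.26 and -0.91. Usp18, which removes Isg15 from proteins, was at -0.41, 0.30 and 0.69 against 3.05, 2.77, 3.11, 0.50 and 2.16, overlapping through MSU_28, and was not called (difference -2.13, adjusted p = 0.0558, limma). Averaged over the 25 members measured on all arrays, the list lay between -0.06 and 0.85 in HFD Early and between 0.57 and 2.13 in LFD Late tumors, with MSU_28 lowest.

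The interferon calls depended on single tumors and on scaling. There were 0 without MSU_768, 2 without MSU_105 or without MSU_163, 3 without MSU_34, 5 without MSU_122a and 18 without MSU_28. With the tumor channel alone 2 interferon genes were called. With median centring 0 were called, and their median difference was -0.88 against 0.21 over all genes. Beside them, the T and NK cell list had 2 of 24 genes called lower and 0 higher, against 2.98% and 2.27% of all genes, with a median of -0.30. Gzmb, the cytotoxic protease granzyme B, was at -0.28, -0.27 and 0.08 against 1.02, 1.36, 0.77, 0.52 and 1.04, without overlap (difference -1.1, adjusted p = 0.0274, limma). Cd3e, a subunit of the T cell receptor complex, was at -2.04, -1.34 and -1.06 against -0.47, -0.55, -1.05 and -0.48 and was not called (adjusted p = 0.22, limma). The mean of the T and NK cell list ranged from -1.07 to -0.26 in HFD Early and from -0.44 to -0.08 in LFD Late tumors. The part of T and NK cells in the interferon result was not tested.

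**Figure D3:**
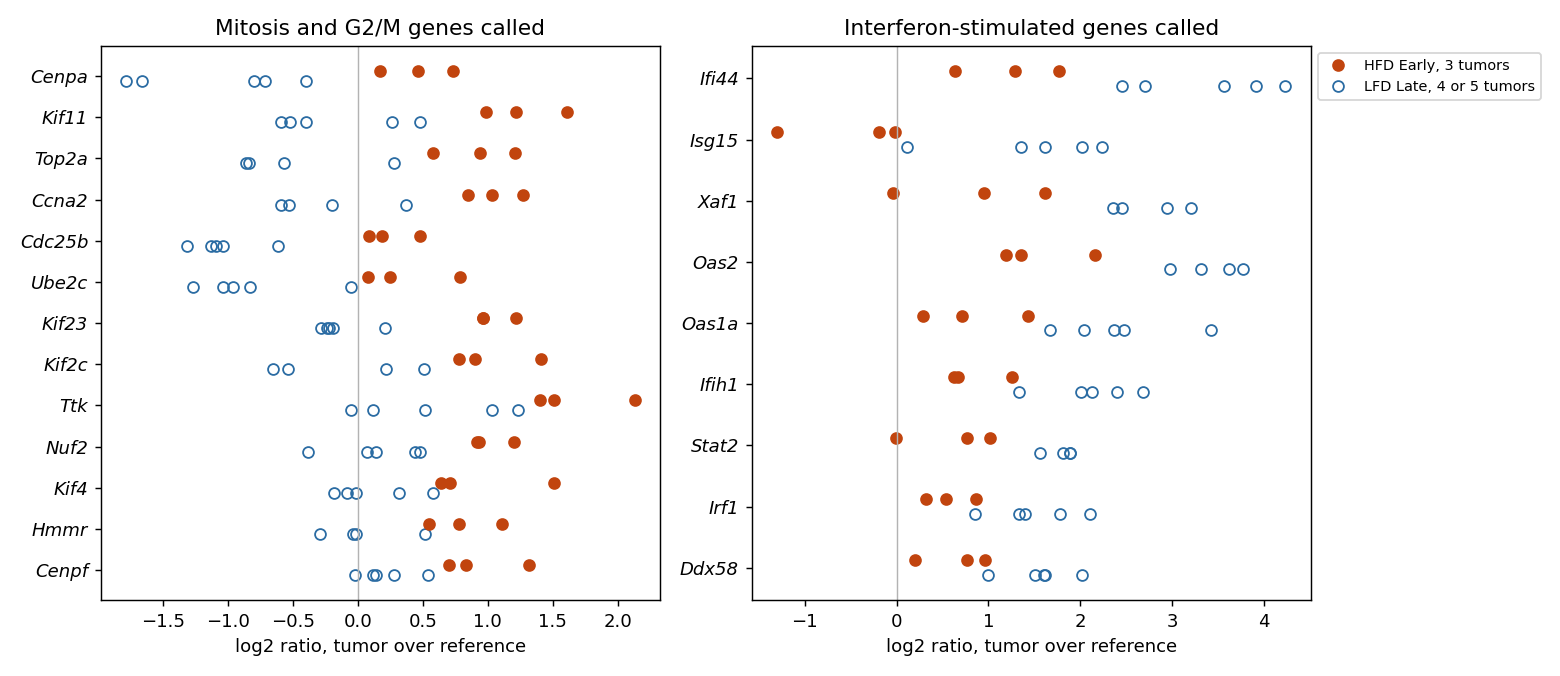
Log2 ratio of tumor to reference (x axis) for the 13 called mitosis and G2/M genes (left) and the 9 called interferon-stimulated genes (right). Filled points are the 3 HFD Early tumors and open points the LFD Late tumors; Cenpa was at 0.17 or above in HFD Early and at -0.40 or below in LFD Late tumors, and Oas2 at 2.16 or below and at 2.98 or above.

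In the Wnt pathway, 6 of 57 genes were called higher and 0 lower, against 2.27% and 2.98% of all genes. The list median was 0.26, and 34 genes had a positive and 23 a negative difference, against 8913 and 12042 of all genes. Lgr6, a receptor for R-spondins that marks skin stem cells, was at 3.47, 4.34 and 4.49 in HFD Early tumors and at 0.48, 0.88, 3.21, 1.1 and -0.34 in LFD Late tumors. MSU_137 lay just below the HFD Early tumors, and the difference was 3.03 (SE 0.78, adjusted p = 0.0311, limma). Tcf7, a TCF factor, was at 2.93, 2.41 and 2.43 against -1.32, -0.34, 1.07 and -0.98, a difference of 2.98 (SE 0.60, adjusted p = 0.0141, limma). HFD Late tumors with a Tcf7 value, from -1.04 to 0.13, lay below the HFD Early tumors, and MSU_93 and MSU_96 had none. Ctnnb1, which encodes β-catenin, was at 1.25, 1.51 and 1.48 against 0.89, 0.72, 0.51 and 0.67, a small difference of 0.72 (adjusted p = 0.0484, limma) without overlap. Ctnnb1 lost its call in 15 of 27 other settings, with an adjusted p of up to 0.499 in limma. The frizzled receptor Fzd1 and Nkd2, an inhibitor that Wnt signals induce, differed by 1.49 and 1.98, and their groups overlapped. Tnfrsf19, a receptor of the TNF family and a Wnt target, was at 2.16, 3.28 and 2.84 against -0.84, -2.19, 1.64, 2.27 and -1.37, with MSU_28 inside the HFD Early range. Among secreted inhibitors, Wif1 was at 2.72, 2.99 and 3.78 against 0.95, -0.70, 0.76, 1.68 and 0.40 and Notum at 0.15, 2.23 and 1.94 against -0.34, -0.73, -0.31, 0.89 and -0.70. Neither was called (adjusted p = 0.0859 and 0.0557, limma). The ligand Wnt4 was at -1.44, -2.78 and -3.18 against 1.73, 0.54, -2.15, -2.70 and 0.26, the groups overlapped, and it was not called either (difference -2.0, adjusted p = 0.206, limma). The count of called Wnt genes was 0 without MSU_768 or MSU_34, 1 without MSU_105 or MSU_97, 3 without MSU_122a and 11 without MSU_28.

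Tgfa, a ligand of the EGF receptor, lost its call in 1 of 27 other settings, the fit on the 8 arrays alone, with its probe at chr6:86224838-86224897 (mm9). It was at 2.53, 3.24 and 2.66 in HFD Early and at 0.09, 0.75, 1.32, 1.23 and 0.11 in LFD Late tumors, with no overlap. The difference was 2.11 (SE 0.31, adjusted p = 0.00186, limma), or 4.32-fold, and HFD Late tumors were at 0.00 to 1.36. It was 1 of 16 EGF ligands and ErbB receptors to be called, against 2.27% of all genes called higher. Ntf3, a neurotrophin, was at 0.72, 1.02 and -0.35 against -2.47, -2.81, -2.96, -0.76 and -2.22, a difference of 2.71 (adjusted p = 0.0119, limma), but its probe was well above background on 2 of 5 LFD Late arrays, so the size of the difference rests on dim values. With genes required to be well above background in both channels Ntf3 was not tested. Its receptor Ntrk3 was at -1.27, -3.76 and -2.13 against 1.1, 1.34, -2.13, -0.25 and 1.81 and was not called (adjusted p = 0.0998, limma). Fgf8, a fibroblast growth factor of embryonic tissues, was the 1 gene of 20 in its list to be called, and lower, at 0.28, -0.20 and -0.24 against 1.84, 1.37, 2.6 and 2.46. The difference was -2.12 (SE 0.31, adjusted p = 0.0037, limma). In the Hedgehog pathway Gli3, a transcription factor that acts chiefly as a repressor, was at 0.50, 0.48 and 0.46 against -0.95, -0.39, -1.88, -0.04 and -0.72, and 1 of 13 genes was called. Id4 was the 1 gene called of 34 in the BMP and TGF-beta list, and Mycn the 1 of 19 in the Myc network. A single call in lists of 13 to 34 genes is near the share over all genes, 5.25%, with 2.27% higher and 2.98% lower. Myc itself was at 1.55, 1.54 and 1.61 against 1.09, 0.67, 1.61, 1.54 and 0.30 and was not called (adjusted p = 0.243, limma).

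A panel of 14 genes had also been measured by PCR. The study measured Tgfa, Tgfb1, Ccl1, Ccl17, Ccl20 and Ccl22 in mammary glands before tumors arose and the others in tumors. Of the panel, 11 could be tested on the arrays, and 3 were called, Ntf3, Tgfa and Ctnnb1. The call was lost in 3 of 26 other settings for Ntf3, 1 of 27 for Tgfa and 15 of 27 for Ctnnb1. The DNA damage factor Trp53 was at 1.70, 1.54 and 2.45 against 0.23, 1.67, 1.14 and -0.04 (difference 1.15, adjusted p = 0.0718, limma). Ccnd2, a cyclin of G1, was at 0.30, -0.58 and -0.29 against -3.16, -0.48, -1.87, -0.37 and -2.52 (difference 1.49, adjusted p = 0.141, limma). In both genes the groups overlapped, through MSU_122a for Trp53 and through MSU_122a and MSU_28 for Ccnd2. The repair gene Brca1 differed by 0.56, the apoptosis adaptor Apaf1 by 0.86 and Bmp7 by 0.84, with adjusted p of 0.0804, 0.175 and 0.316 in limma. Differences for Tgfb1, Ccl1 and Ccl17, a growth factor and 2 chemokines, were -0.02, 0.02 and 0.10 with standard errors of 0.32, 0.10 and 0.31. Their signs turned under other settings. Bmp10, Ccl20 and Ccl22 did not pass the signal filter, with the reference channel over the minimum on 18, 2 and 1 of 24 arrays.

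Of 42 translation initiation factors 3 were called higher, against 2.27% of all genes, among them Eif2s3x, a subunit of the factor that brings the initiator tRNA, at 1.62, 1.45 and 1.86 against -0.19, 0.77, 1.13, 0.39 and -0.07 (difference 1.24, adjusted p = 0.013, limma). Eif3f and Eif3a, of the largest initiation complex, differed by 0.84 and 0.81. Of 43 cytosolic ribosomal proteins 0 were called in limma and 13 had an unadjusted p under 0.05, against 25.3% of all genes, with a median of 0.12. Paics, an enzyme of purine synthesis, was at 0.68, 1.17 and 1.12 against 0.11, -0.23, 0.01 and -0.34, a difference of 1.1 (adjusted p = 0.00593, limma), while Impdh1 of the same pathway was lower by -0.64. Srebf2, the regulator of cholesterol synthesis, was higher by 1.07. It was the 1 of 33 genes of its list to be called, against 2.27% of all genes called higher. Of 39 respiratory chain genes 2 were called lower, against 2.98% of all genes. They were the cytochrome oxidase subunits Cox8a and Cox6c, by -0.67 and -0.78. The list median of -0.22 was 0.07 with median centring. Among 35 xenobiotic enzymes 2 were called lower, against 2.98% of all genes. They were Pon3, a lactonase, and Gstt1, a glutathione transferase, by -1.16 and -2.0. Complement and coagulation genes had 4 of 51 called lower, against 2.98% of all genes, and 3 of these, Cfi, Serpind1 and Serpina1a, belonged to the genes far below the reference. In limma 0 genes were called among Notch, p53, glycolysis, antigen presentation and EMT genes, with 3 of 24, 4 of 28, 3 of 33, 4 of 20 and 4 of 25 at an unadjusted p under 0.05, against 25.3% of all genes.

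**Figure D4:**
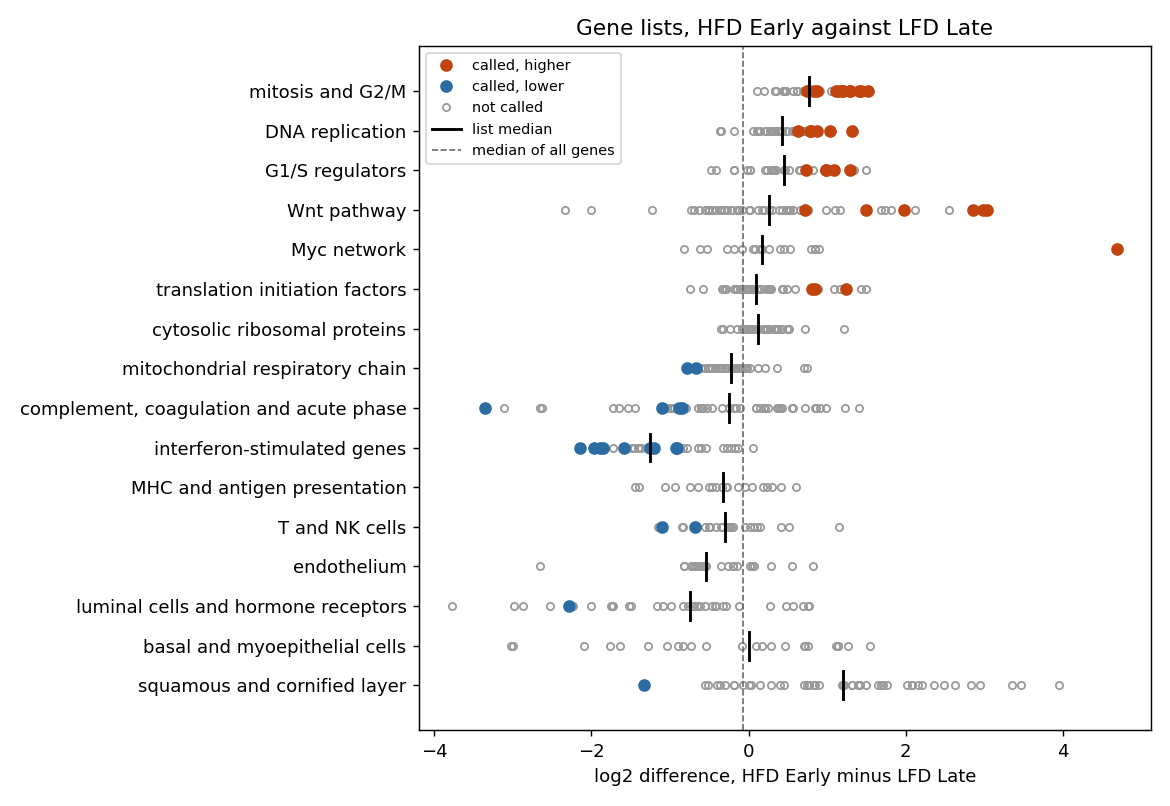
Log2 difference, HFD Early minus LFD Late (x axis), for every tested member of 16 gene lists. Filled points passed the test, black bars are list medians and the dashed line is the median of all genes at -0.07; the mitosis median was 0.77 and the interferon median -1.26.

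Krt8, a keratin of simple epithelia, was at 2.16, -0.24 and 0.80 against 3.25, 3.41, 2.33, 0.69 and 3.60, and was not called (difference -1.75, adjusted p = 0.389, limma). The prolactin receptor Prlr was at 3.00, -0.88 and -0.77 against 6.23, 5.53, 1.93, 0.99 and 6.43, a difference of -3.77 (adjusted p = 0.1, limma). For both genes MSU_163 lay inside the LFD Late range, and for Krt8 MSU_97 did too. Of 34 luminal genes 28 were lower in HFD Early tumors, against 12042 of all 20955 genes. The test called 1 of the 34, against 2.98% of all genes called lower. It was Gata3, a luminal transcription factor that is also counted in the hair follicle list. Gata3 was at 2.25, -0.30 and -0.07 against 3.03, 2.94, 2.02 and 3.63, overlapping through MSU_163 (difference -2.28, adjusted p = 0.0185, limma). The milk and secretory list had 2 of 29 called lower, Aqp5 and the calcium pump Atp2b2, against 2.98% of all genes. Of 24 basal and myoepithelial genes 0 were called in limma and 8 had an unadjusted p under 0.05, against 25.3% of all genes. Krt14, a basal keratin, was at -1.12, 2.6 and 2.98 against -0.22, 1.02, 0.83, 0.18 and -0.10.

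The squamous and cornified list had a median difference of 1.2, with 38 of 47 genes positive, against 8913 of all 20955 genes. But 1 gene was called, Sprr3, and it was lower, against 2.98% of all genes called lower. Its probe was well above background on 2 of 3 HFD Early arrays. Serpinb11, an epidermal serpin, was at 3.84, 2.65 and 3.83 against -0.57, -1.45, 1.58 and -1.58 and just missed the threshold (adjusted p = 0.06, limma). Averaged over 36 members, the squamous list was at -2.23 in MSU_163, -0.17 in MSU_768 and 0.35 in MSU_97, against -2.61, -2.09, -0.01, -1.11 and -2.27 in LFD Late tumors. MSU_163 was thus within the range of most LFD Late tumors, and MSU_137 within that of the other HFD Early tumors. Lists of endothelium, fibroblasts, adipocytes, skeletal muscle, macrophages, neutrophils and B cells had 0 genes called in limma, with medians from -0.54 to 0.46. At an unadjusted p under 0.05 there were 4 of 23 endothelial, 8 of 32 fibroblast, 1 of 27 adipocyte, 4 of 28 muscle, 5 of 34 macrophage, 1 of 18 neutrophil and 2 of 16 B cell genes, against 25.3% of all genes. Squamous and luminal list means moved with the groups only in part, and their part in the other differences was not tested.

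**Figure D5:**
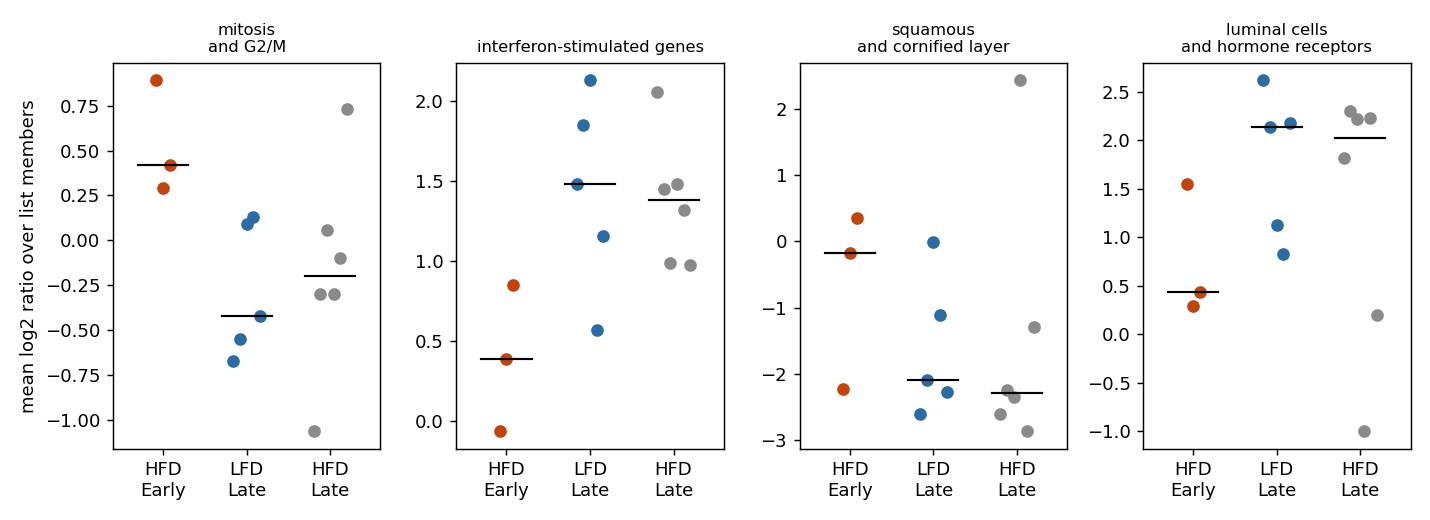
Mean log2 ratio over list members (y axis) in each of the 3 HFD Early, 5 LFD Late and 6 HFD Late tumors, for 4 lists; black bars are group medians. The mitosis means were 0.29 to 0.89 in HFD Early and -0.67 to 0.13 in LFD Late tumors, while the squamous means overlapped, at -2.23 to 0.35 and -2.61 to -0.01.

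HFD Late tumors shared the diet of the early group and the onset of the late group. Against LFD Late tumors, 0 genes were called for HFD Late tumors in limma, with 1887 (9.01%) at an unadjusted p under 0.05 and a smallest adjusted p of 0.0625. HFD Early against HFD Late tumors gave 2822 called genes (13.5%). The HFD Late arrays were on slides 3 and 6 and shared no slide with the HFD Early arrays on slide 2. Onset and slide cannot be told apart there. These comparisons share arrays with the main one, so only values are set side by side. For Tgfa, HFD Early tumors lay 2.11 above LFD Late and 2.18 above HFD Late tumors, and for Aldh1a1 4.10 and 3.41. Fgf8 differed by -2.12 from LFD Late and by -0.77 from HFD Late tumors, and the latter was not called (adjusted p = 0.105, limma). For Mycn the differences were 4.69 and 2.41, the latter not called (adjusted p = 0.166, limma). For Fgf8 and Mycn the HFD Late tumors MSU_93 and MSU_96 had no value. Mitosis list means of HFD Late tumors ran from -1.06 to 0.73 and interferon means from 0.98 to 2.06. Their squamous means ran from -2.86 to 2.43 and luminal means from -1 to 2.3, with MSU_86 highest in the former and lowest in the latter.

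Early and late tumors were also compared in mice whose diet was switched, on arrays that the main comparison did not use but in the same fit. All 3 HFD-LFD Early arrays were on slide 4 with 1 of the LFD-HFD Late arrays, and the other 3 were on slides 6 and 7 in another scan session, so onset and slide are largely tied there too. There, 1589 genes (7.58%) were called, 653 (3.12%) higher and 936 (4.47%) lower in HFD-LFD Early than in LFD-HFD Late tumors. Of the 1101 genes called between HFD Early and LFD Late tumors, 1042 (94.6%) had the same sign, against 72.6% of all genes tested. Both comparisons called 379 genes, which is 34.4% of the 1101 and 23.9% of the 1589, and 0 were called with opposite signs. All 38 called genes named by rule had the same sign and 25 were called in both. Aldh1a1 differed by 4.50, Cybrd1 by 4.17 and Tgfa by 2.42 in the switched mice, against 4.10, 3.24 and 2.11. The mitosis list had 14 genes called higher and 0 lower, with a median of 1.01, and the interferon list 16 lower and 0 higher, with a median of -1.49. DNA replication had 19 called higher and 0 lower, and the Wnt list of 57 genes 15 and 2. The squamous list had 5 of 47 called higher and 0 lower, with a median of 2.3. The luminal list had 0 of 34 called higher and 7 lower, with a median of -1.39. Of 42 genes of the hair follicle list 6 were called higher and 1 lower, with a median of 2.94. Between HFD Early and LFD Late tumors that list had 0 higher and 1 lower, with a median of 0.81. These counts stand against 3.12% higher and 4.47% lower over all genes. A test of the difference between both changes called 0 genes in limma, with 1141 (5.45%) at an unadjusted p under 0.05 and a smallest adjusted p of 0.155. Eif2s3x, Cfi, Srebf2, Pnliprp1, Defb1 and Fgf8 had an unadjusted p under 0.05 there. Eif2s3x differed by 1.24 between HFD Early and LFD Late tumors and by 0.10 in the switched mice (unadjusted p = 0.00641 for the difference, limma), and Defb1 by -3.97 and -1.55 (unadjusted p = 0.0345, limma).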

How the data were processed

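Total RNA of 24 DMBA-induced mammary tumors was hybridized to Agilent 2-color arrays against Universal Mouse Reference RNA, and groups were taken from the labels' diet and onset. The intensity values deposited by the authors are the scanner software's spot and local background brightness in each dye, not normalized between dyes. The log10 values deposited by the authors are the same software's dye-normalized ratios, which were used as an alternative. The software was Agilent Feature Extraction, version 8.5.1.1 in the submitters' processing notes and 11.0.1.1 in the file headers.

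Analysis used R 4.3.3 and limma 3.58.1. Background was corrected by normexp (offset 50), ratios by loess within each array, and dimmed rows on slides 6 and 7 were set missing. A probe needed a signal over 10 in each channel on 80% or more of the arrays (27302 of 39429 passed), and the brightest probe stood for each gene, leaving 20955. Probe names came from RefSeq by accession (26592), symbol (4113) or older symbol (673), while 8051 stayed under their file name. A limma model with 6 group means over 24 arrays gave the contrast, two-sided, with Benjamini-Hochberg adjusted p under 0.05 over all genes. Depth is not defined for arrays, and the number of tumors limits the precision. The labels do not say whether tumors came from separate mice, and p-values measure the spread between tumors. In the fit, the names MSU_59a and MSU_59b share a number, as do MSU_62a and MSU_62b, but the diet labels within each pair differ. What the shared numbers mark is not known.

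Named were, among called genes without overlap, the 10 with the largest rise and the 10 with the largest fall, well above background in the higher group and with at least 4 LFD Late values, the gene with the smallest p in each list with a call, and 14 genes also measured by PCR. Other members of the lists are named as examples. Members and gene lists were chosen with earlier results of these data known, and 2 promoter motifs (those of the interferon element and the cell cycle homology region) were added later still. Alternatives covered background correction, scaling, filters, missing values, probes, array weights, slide and session, and each tumor left out. The steps were tested on simulated data. Significance analysis of microarrays, which regroups the samples, was not run.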

Additional observations from a re-analysis of the deposited data

Results flagged for a closer look

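Of 46 named genes tested for an LFD Late tumor far from the others of its group, 3 had one, and chance flags about 1 in 20. Aldh1a1 was at 0.74 in MSU_28 and between -2.08 and -1.44 in the other LFD Late tumors. Slc6a15 was at 0.77 in MSU_137 and between -1.24 and -1.09 in the other 3 measured. Pnliprp1 was at -3.29 in MSU_34 and between -6.35 and -5.55 in the others.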

How the results depend on the processing

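The 1101 genes called between HFD Early and LFD Late tumors became 233 with the tumor channel alone, 303 with the dimmed rows kept, 104 with slide as a random block, 2108 with scan session as a fixed block, 3 on the 8 arrays alone, 153 within scan session 1, 7168 with array weights and 5304 at an unadjusted p. Without the 7 arrays of slides 6 and 7, an alternative added after the data had been seen, the count was 1780, without genes under -3 in both groups 850 and with wider rows set missing 1234, both also added later, and leaving out 1 tumor at a time gave 34 (without MSU_768) to 2855 (without MSU_137). Median centring called 1028 genes, of which 481 were among the 1101. The difference from the switched mice, with 0 genes called, gave 2 (Abcc2 and Ttc9b) with the scanner software's log ratio, 155 with array weights, 1141 at an unadjusted p, and 0 to 12 with 1 tumor left out (12 without MSU_97, 11 without MSU_163). The cause of these shifts was not tested. Of the named genes, Cox8a turned to 0.59 with the dimmed rows kept. Ccl1 (0.02) turned to -0.05 without background correction, -0.08 with median centring, -0.06 with the tumor channel alone, -0.02 with the dimmed rows kept, -0.06 with array weights and -0.05 without MSU_163, with a range of -0.05 to 0.09 over single tumors left out. Tgfb1 (-0.02) turned to 0.45 with median centring, 0.06 with the tumor channel alone, and 0.10, 0.15, 0.05 and 0.08 without MSU_105, MSU_122a, MSU_163 and MSU_768, within a range of -0.21 to 0.15. Ccl17 (0.10) turned to -0.13 with array weights, -0.04 without MSU_137 and -0.12 without MSU_97, within a range of -0.12 to 0.25. No paired analysis was possible because each tumor is a separate sample and the labels pair none of them. With 66.1% to 81.2% of probes per array well above background, the dimmer genes are the least resolved.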
